A study of Mus musculus with 13 samples.

Results

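The insulin and insulin-like growth factor (IGF) signalling genes Irs2, Igf1, Igf2, Igfbp2, Igfbp4 and Igfbp5 were followed across 13 arrays. Every probe set (a group of short probes that reads 1 transcript) that the array's annotation gave to 1 of these genes alone was taken, however dim. This gave 9 probe sets of 5 genes, out of 12422 gene probe sets on the array. Igfbp2 and Irs2 had 1 probe set each, Igf1 and Igf2 had 2 each, and Igfbp4 had 3. Igfbp5 was read only by a probe set shared with another gene and is given no value.

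The arrays measured RNA of whole mouse brain hemispheres. Wild type untreated mice gave 3 arrays, wild type mice with the triple treatment 3, untreated R6/2 mice 4 and R6/2 mice with the triple treatment 3. R6/2 is a transgenic line used to model Huntington's disease, in which exon 1 of human huntingtin, bearing an expanded CAG repeat, is expressed. The triple treatment was tacrine at 2.7 mg/kg per day from 5 weeks of age, moclobemide at 10 mg/kg per day and creatine at 1% in the food mash. Because the descriptions list these agents for the untreated samples too, treatment was read from the titles. A harvest age, 8 weeks, was stated for wild type untreated array 2 alone. The labels name no sex, no pairing and no separate animals, so p-values measure only the spread between these samples, which may be technical. The title of R6/2 treated array 1 carries its own lot number, but its description repeats the lot number of R6/2 untreated array 4. In whole tissue, fewer cells of a type and less RNA per cell cannot be told apart.

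IGF1 and IGF2 are secreted growth factors that, like insulin, act on receptor tyrosine kinases, and their receptors pass the signal to adaptor proteins such as IRS2. IRS2 recruits phosphoinositide 3-kinase (PI3K), which activates AKT kinases, and these switch on growth through mTOR and hold FOXO transcription factors out of the nucleus. IGF-binding proteins hold the IGFs outside the cell and set how much reaches a receptor. In the adult brain Igf2 is made mainly by the choroid plexus and the meninges, while Igf1 comes from neurons and glia.

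In untreated mice, Igf2 was 1.58-fold higher in R6/2 than in wild type by the 1 of its 2 probe sets that was bright enough to test. Of the 2 tested Igfbp4 probe sets 1 was 3.51-fold lower. The dim Irs2 was lower by a fold that depended on how dim signals were handled (6.30-fold as fitted, 3.2-fold with signals under 20 raised to 20). These 3 of the 6 tested probe sets passed the threshold, an adjusted p under 0.05, as did 11.9% of all 7453 tested probe sets (5.49% higher and 6.41% lower). Irs2 was bright enough to test only through the arrays in which it was high, so its place among the 3 supports nothing about these genes as a group. The genes were also chosen with earlier results of these data known. Counts of them beside all tested probe sets are therefore descriptions and support nothing about the group. When untreated R6/2 arrays 2 and 3, which stood apart from the others, were left out, 1 of the 6 passed (Igf2), against 2.19% of all. Igf1 and Igfbp2 did not pass in any comparison. No probe set of these genes passed in the comparison of treated genotypes or in either comparison of treated with untreated mice.

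The 250 bases before the start of 3 of these genes are shown as examples, from RefSeq on the mouse build GRCm38. In untreated R6/2 mice Igf2 was higher, Irs2 was lower, and Igfbp2 had an estimate below 0 (-0.41) that did not pass. The sequences were searched on both strands for the FOXO core GTAAACA, the short core TGACG of the cAMP response element and the EGR core GTGGGCG, and matches are in capitals. The Irs2 sequence is chr8:11008930-11009179 on the minus strand, the Igf2 sequence is chr7:142666817-142667066 on the minus strand, upstream of the first of its 4 listed starts, and the Igfbp2 sequence is chr1:72824230-72824479 on the plus strand.
Irs2: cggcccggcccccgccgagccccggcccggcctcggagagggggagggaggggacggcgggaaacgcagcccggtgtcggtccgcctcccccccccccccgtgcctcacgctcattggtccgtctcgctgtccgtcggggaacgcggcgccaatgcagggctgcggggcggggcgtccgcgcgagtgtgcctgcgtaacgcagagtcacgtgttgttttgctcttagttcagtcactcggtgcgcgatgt
Igf2: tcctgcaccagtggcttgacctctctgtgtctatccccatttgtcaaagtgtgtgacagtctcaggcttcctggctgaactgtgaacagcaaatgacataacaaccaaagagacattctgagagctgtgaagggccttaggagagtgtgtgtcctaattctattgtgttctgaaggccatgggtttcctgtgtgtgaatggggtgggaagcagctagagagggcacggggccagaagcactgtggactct
Igfbp2: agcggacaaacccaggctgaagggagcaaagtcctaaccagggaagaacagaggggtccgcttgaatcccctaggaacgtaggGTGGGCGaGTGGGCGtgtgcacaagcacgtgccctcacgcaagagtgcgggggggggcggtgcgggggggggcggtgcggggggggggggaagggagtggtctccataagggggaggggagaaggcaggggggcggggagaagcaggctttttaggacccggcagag
The Irs2 and Igf2 sequences held none of the 3 motifs, and the Irs2 sequence was 72.8% G and C. The Igfbp2 sequence held 2 EGR cores, 167 and 159 bases before the start, and the sequence of its other start held 1 at 7 bases. Among 32851 mouse promoter sequences of this length, 7.02% held the EGR core, 17.8% TGACG and 3.17% the FOXO core. Of the other sequences of these genes, only that of the third Igf2 start held a match, a TGACG 189 bases before it. The motifs share no bases with each other in these windows, and a match is a run of letters, not a measured site.

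Untreated R6/2 arrays 2 and 3 stood apart from the other 11 arrays over all tested probe sets. On the first principal component, which held 33.9% of the variance, they scored 25.4 and 45.7, against 4.09 or less in the others. The calls and the members' differences that rest on the untreated R6/2 group are therefore also given without them. Markers of the tissue were present: the summed signal of 8 neuronal markers was 6279.1 to 8264.9 over all arrays and that of 7 astrocyte markers 2867.2 to 3763.8. The neuronal sums were 7877 to 8264.9 in untreated wild type and 6279.1 to 7393.9 in untreated R6/2 arrays. The astrocyte sums were 3358.5 to 3401.5 and 2877.3 to 3379.3 in the same groups. Striatal projection neuron markers, which mark the cells most affected in this model, summed to 2989.5 to 3466.5 in untreated wild type and 1526.8 to 1794.7 in untreated R6/2 arrays, and 4 of 6 tested fell, or 3 without arrays 2 and 3. Oligodendrocyte markers summed to 4039.6 to 4466.3 and 2380.7 to 3053.4 in the same groups, and 4 of 7 fell, or 2 without those arrays. Of 8 neuronal markers 3 fell (1 without those arrays), and of 7 astrocyte markers 2 fell (0 without those arrays, 4 at an unadjusted p under 0.05, limma). Over all tested probe sets 6.41% fell. Without those arrays 2.19% of all passed, and 18.8% had an unadjusted p under 0.05 (limma). The part of these markers in the results below was not tested.

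Igf2, the fetal growth factor that the choroid plexus and meninges keep making, lies at chr7:142650768-142666816 in the RefSeq annotation of GRCm38. Its bright probe set (98623_g_at) gave signals, in linear units scaled to a trimmed mean of about 100 per array, of 393.1, 303.4 and 334.7 in wild type untreated arrays 1 to 3. Untreated R6/2 arrays 1 to 4 gave 625.6, 443.5, 639.5 and 477.9. All 4 untreated R6/2 arrays lay above all 3 untreated wild type arrays, and arrays 1 and 3 were the highest of the 13 with R6/2 treated array 1. In all, 4 of the 6 tested probe sets of these genes did not overlap between these groups, against 26.2% of all tested probe sets. This was again 4 of 6, against 40.9%, without untreated R6/2 arrays 2 and 3. Irs2, tested only through its high arrays, is among the 4, and its place there supports nothing about these genes as a group. The same holds for the count, since the genes were chosen with earlier results of these data known. The untreated wild type mean of Igf2 was 344 ± 45.5 (SD, n = 3), and that of untreated R6/2 arrays was 547 ± 100.4 (SD, n = 4). The difference was 0.66 ± 0.14 on the log2 scale (SE from limma, n = 4 and 3, adjusted p = 0.0139). Without untreated R6/2 arrays 2 and 3 it was 0.68 (limma, adjusted p = 0.0275).

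In treated mice the order was the same. Wild type treated arrays read 482.6, 470.8 and 470.1, the tightest group of any tested probe set of these genes, and R6/2 treated arrays read 630.7, 541.5 and 623.9. The groups did not overlap, as in 16.8% of all tested probe sets, but the difference of 0.33 ± 0.15 did not pass (limma, adjusted p = 0.533). Averaged over both treatments, R6/2 was higher by 0.50 ± 0.10 (limma, adjusted p = 0.0107), and this call was kept in all 13 fits that left out 1 array and without untreated R6/2 arrays 2 and 3 (0.51, limma adjusted p = 0.00726). The untreated call was lost without wild type untreated array 2 (0.57, limma adjusted p = 0.0692), without wild type untreated array 3 (0.64, limma adjusted p = 0.0583) and when only the 7 arrays compared were fitted (limma adjusted p = 0.0587).

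In wild type mice the treated arrays lay above the untreated ones without overlap, as in 21.8% of all tested probe sets. The difference was 0.47 ± 0.15 (limma, adjusted p = 0.323), so it did not pass, although it did with arrays weighted by their quality (0.48, limma adjusted p = 0.0490). In R6/2 mice the treated arrays overlapped the untreated ones, with a difference of 0.15 ± 0.14 (limma, adjusted p = 0.598), or 0.13 without untreated R6/2 arrays 2 and 3. The 2 treatment differences were not shown to differ (interaction of -0.33 ± 0.21, limma adjusted p = 0.491, or -0.35 without those arrays). The other Igf2 probe set (98622_at) was near the floor of the array, at 2.2 to 11.6, and was not tested. Fitted without the filter on dim probe sets, its untreated genotype difference was -0.45 (limma, adjusted p = 0.598).

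Markers of the tissues that make Igf2 were read beside it. Of 14 choroid plexus markers 7 had a probe set of their own and 4 were bright enough to test. Between untreated genotypes 0 of 4 passed, against 11.9% of all tested probe sets, and 1 had an unadjusted p under 0.05 (limma), against 30.2%. All 4 estimates were above 0, with a median of 0.42 (0.46 without untreated R6/2 arrays 2 and 3), against 0.04 over all tested probe sets. Their summed signal was 505.5 to 762.6 in untreated wild type and 575.7 to 1017.5 in untreated R6/2 arrays, and 461.6 to 634.8 and 494.1 to 717.4 in the treated groups. Ttr made up most of this sum, such as 416.1 of 505.5 in wild type untreated array 2. Ttr, the transport protein that the choroid plexus makes in bulk, differed by 0.33 between untreated genotypes (limma, adjusted p = 0.288), or 0.29 without untreated R6/2 arrays 2 and 3. Of 9 tested markers of meninges and perivascular fibroblasts, Col1a1 alone rose. This collagen chain read 76.7 to 79.7 in untreated wild type and 102 to 120.6 in untreated R6/2 arrays (0.48 ± 0.14 between untreated genotypes, limma adjusted p = 0.0369), while its other probe set differed by 0.22. The Col1a1 call was lost without untreated R6/2 arrays 2 and 3 (0.50, limma adjusted p = 0.116). With treatment it read 91.4 to 107.9 in wild type and 101.7 to 142.8 in R6/2 arrays. The summed meningeal signal was 2324.7 to 2906.8 in untreated wild type and 2856.3 to 3769 in untreated R6/2 arrays, with 2412.3 to 3191.7 and 3021 to 3717.2 in the treated groups. The part of these tissues in the Igf2 difference was not tested.

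**Figure D1:**
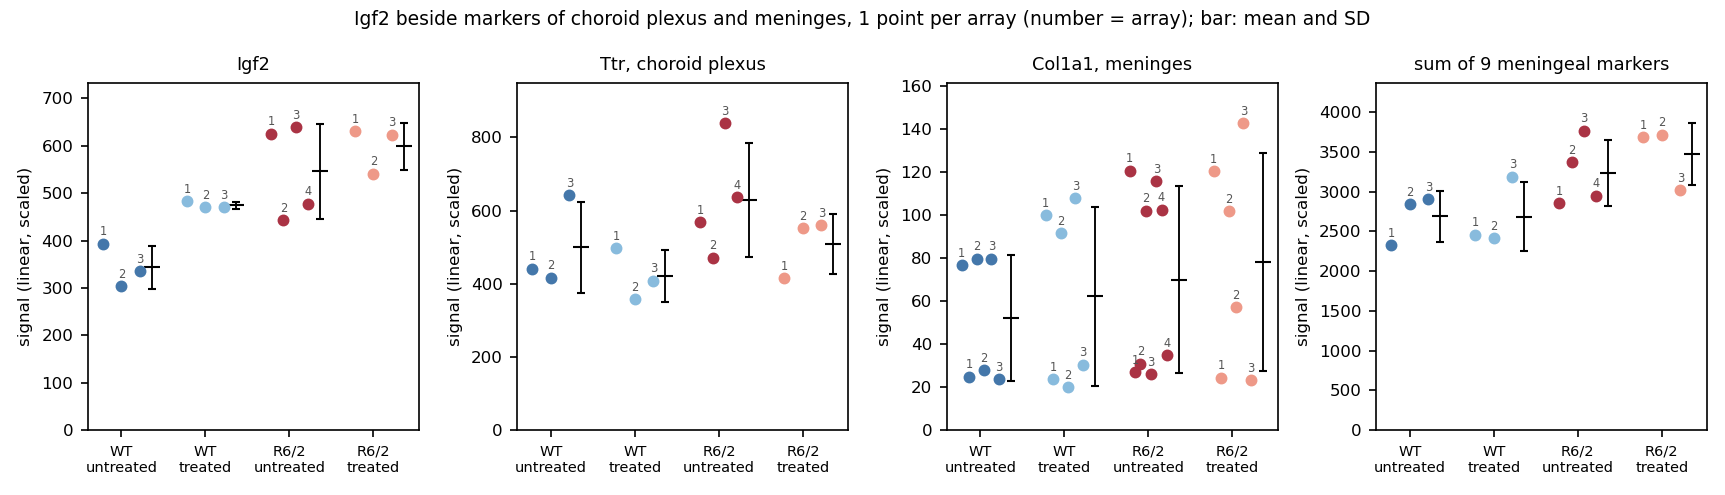
Signal on a linear scale in each array (numbered points) for Igf2, the choroid plexus marker Ttr, the meningeal marker Col1a1 and the sum of 9 meningeal markers, with the mean and SD of each of the 4 groups. The Col1a1 panel holds both of its probe sets, a brighter and a dimmer one, and its mean and SD run over both. Igf2 and the brighter Col1a1 probe set are lowest in all 3 untreated wild type arrays, while Ttr overlaps between every pair of groups.

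Igf1, the other growth factor, lies at chr10:87858265-87937047. Its bright probe set (95545_at) read 349.8, 276.5 and 303.7 in wild type untreated arrays and 268.1, 244.6, 196 and 303 in untreated R6/2 arrays. The groups overlapped, with untreated R6/2 array 3 the lowest of all, and the difference of -0.30 ± 0.17 did not pass (limma, adjusted p = 0.246). Without untreated R6/2 arrays 2 and 3 it was -0.11. Wild type treated arrays read 310.9, 373.5 and 299, and R6/2 treated arrays read 448.5, 293 and 414.2. Of the R6/2 treated arrays 2 were the highest of the 13, and the third lay within the untreated range. The difference between treated and untreated R6/2 mice was 0.60 ± 0.17, with an interval of 0.23 to 0.97 (95%, limma, adjusted p = 0.246). It became 0.41 without untreated R6/2 arrays 2 and 3, and 0.48 without R6/2 treated array 1. In wild type mice treatment made a difference of 0.08 ± 0.18 (limma, adjusted p = 0.922). The second Igf1 probe set (95546_g_at) stayed at 2.3 to 5.6 and was not tested.

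Among the binding proteins, Igfbp4, which restrains IGF action until it is cleaved, lies at chr11:99040005-99052655. A first probe set (101571_g_at) read 100.2, 119.1 and 125.7 in wild type untreated arrays and 57.3, 39.5, 11 and 45.4 in untreated R6/2 arrays. Every untreated R6/2 array was below every untreated wild type array, and array 3 was far below the rest. The group means were 115 ± 13.2 (SD, n = 3) and 38.3 ± 19.6 (SD, n = 4), and the difference was -1.81 ± 0.46 (limma, adjusted p = 0.0239). Without untreated R6/2 array 3 it was -1.29 (limma, adjusted p = 0.0270), and without arrays 2 and 3 it was -1.17 (limma, adjusted p = 0.0902). The call was also lost without wild type untreated array 1 (-1.91, limma adjusted p = 0.0550), array 2 (-1.78, limma adjusted p = 0.0810) or array 3 (-1.74, limma adjusted p = 0.0873), without the filter on dim probe sets (limma adjusted p = 0.0796) and with only the arrays compared (limma adjusted p = 0.0599). Averaged over both treatments it was -1.20 ± 0.33 (limma, adjusted p = 0.0453), and -0.87 without untreated R6/2 arrays 2 and 3 (limma, adjusted p = 0.0423), a call kept in 5 of the 13 fits that left out 1 array. Those fits ran from -1.37 to -0.93, and the call was lost without any 1 of the wild type untreated arrays, wild type treated arrays 1 and 2, untreated R6/2 array 2 and R6/2 treated arrays 1 and 2.

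Treated arrays of this probe set were mixed. Wild type treated arrays read 116.8, 116.6 and 59.7, and R6/2 treated arrays read 51.6, 46.6 and 101.5. In each treated group 1 array sat with the other genotype, and the difference of -0.58 ± 0.49 did not pass (limma, adjusted p = 0.841). Treated and untreated R6/2 mice overlapped and differed by 0.94 ± 0.46 (limma, adjusted p = 0.303), or 0.29 without untreated R6/2 arrays 2 and 3.

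The second tested Igfbp4 probe set (94222_at) gave a smaller difference. It read 69.8, 117 and 62.7 in wild type untreated arrays and 56.9, 57.8, 54.7 and 71 in untreated R6/2 arrays, so the groups overlapped. The difference was -0.42 ± 0.19 (limma, adjusted p = 0.158), or -0.33 without untreated R6/2 arrays 2 and 3 and -0.15 without wild type untreated array 2. Wild type treated arrays at 88.2, 89.6 and 95.8 lay above R6/2 treated arrays at 75.2, 58.9 and 70, and the difference there was -0.43 ± 0.21 (limma, adjusted p = 0.568). Both probe sets had estimates below 0 under both treatments, but they disagreed in size and in call. Across the 13 arrays their log2 signals had a Pearson r of 0.57, and 0.16 once the group means were taken out. The third Igfbp4 probe set (101570_at) stayed at 2.2 to 20.2 and was not tested.

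Igfbp2, the binding protein that the choroid plexus and astrocytes secrete into the brain, lies at chr1:72824480-72852474. Its probe set (98627_at) read 185.2, 235.5 and 199.9 in wild type untreated arrays and 178.1, 173.3, 104.7 and 177.4 in untreated R6/2 arrays. The groups did not overlap, but the nearest arrays were close and untreated R6/2 array 3 was far below the others. The difference of -0.41 ± 0.18 did not pass (limma, adjusted p = 0.144), and it was -0.21 without untreated R6/2 arrays 2 and 3. Wild type treated arrays read 158.4, 169 and 193, and R6/2 treated arrays read 182.4, 216.9 and 237.4. The treatment difference in R6/2 mice, whose groups did not overlap, was 0.45 ± 0.18 (limma, adjusted p = 0.263). In wild type mice, whose groups overlapped, it was -0.25 ± 0.19 (limma, adjusted p = 0.686). The interaction of 0.70 ± 0.27 did not pass (limma, adjusted p = 0.316). Without untreated R6/2 arrays 2 and 3 the treatment difference in R6/2 mice was 0.25 and the interaction 0.50.

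Irs2, the adaptor that couples the insulin and IGF1 receptors to PI3K, lies at chr8:10984681-11008929. Its probe set (92205_at) read 73.8, 73.4 and 48.6 in wild type untreated arrays and 10.2, 7.8, 8 and 16.8 in untreated R6/2 arrays. The highest untreated R6/2 array was below the lowest untreated wild type array by a wide gap. The group means were 65.3 ± 14.4 (SD, n = 3) and 10.7 ± 4.21 (SD, n = 4), and the difference was -2.66 ± 0.57, with an interval of -3.87 to -1.44 (95%, limma, adjusted p = 0.0135). The probe set is dim: its mean signal lay at the 40.2 percentile of gene probe sets, just above the 40th that testing required, and it passed through the arrays in which it was high. Values floored at 20 gave -1.68 and log2 of the signal plus 32 gave -1.18, and both passed. The call was lost without wild type untreated array 2 (-2.56, limma adjusted p = 0.0609) and without untreated R6/2 arrays 2 and 3 (-2.29, limma adjusted p = 0.103).

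Treated wild type arrays spread over nearly the whole range of Irs2, at 8.5, 76.1 and 38.7, and R6/2 treated arrays read 29.1, 43.2 and 16.9. Wild type treated array 1 was thus as low as the untreated R6/2 arrays, and the treated groups overlapped. The treated genotypes differed by -0.08 ± 0.61, with an interval of -1.37 to 1.22 (95%, limma, adjusted p = 0.992). Leaving out 1 array moved this value between -0.97 and 0.61. R6/2 treated arrays all lay above the untreated R6/2 arrays, by a margin of 16.9 against 16.8 at the closest. The difference of 1.45 ± 0.57 did not pass (limma, adjusted p = 0.257), and it was 1.08 without untreated R6/2 arrays 2 and 3. Values floored at 20 gave 0.55 for it, and log2 of the signal plus 32 gave 0.51. In wild type mice treatment made a difference of -1.13 ± 0.61 (limma, adjusted p = 0.535), which ran from -1.82 without wild type treated array 2 to -0.24 without wild type treated array 1. Values floored at 20 gave -0.72 here, and log2 of the signal plus 32 gave -0.51. The genotype differences of untreated and treated mice were not shown to differ (interaction of 2.58 ± 0.83, limma, adjusted p = 0.313). The interaction was 2.21 without untreated R6/2 arrays 2 and 3, 1.27 with the floor of 20 and 1.03 with 32 added, and 1.69 to 3.27 with 1 array left out.

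**Figure D2:**
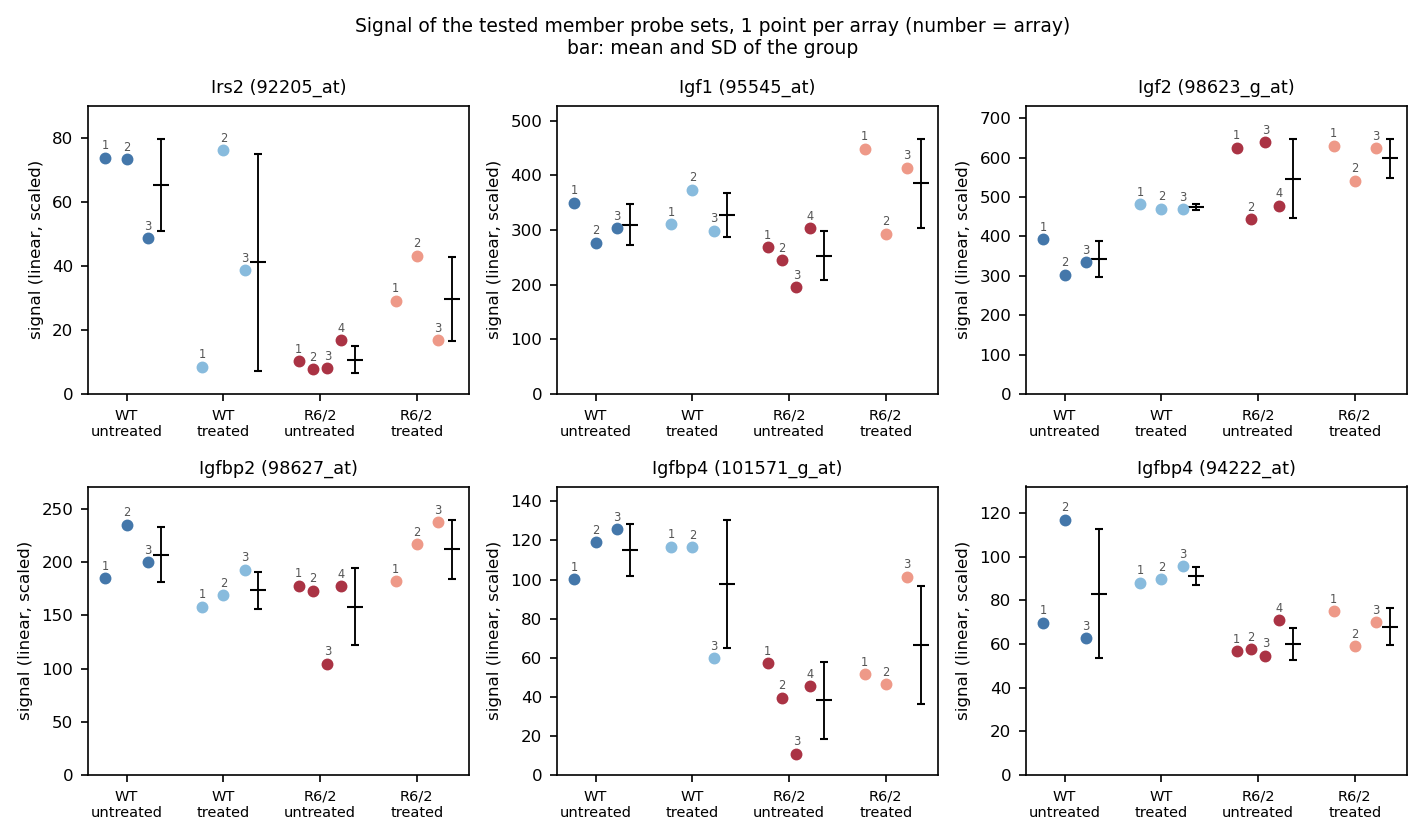
Signal on a linear scale in each array (numbered points) of the 6 tested probe sets, with the mean and SD of the wild type untreated, wild type treated, R6/2 untreated and R6/2 treated groups. Untreated R6/2 arrays lie above untreated wild type arrays for Igf2 and below them for Irs2 and Igfbp4 101571_g_at, and treated wild type arrays of Irs2 run from 8.5 to 76.1.

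Set side by side, the treatment comparisons gave no call for these genes or for any of the 7453 tested probe sets (0% in R6/2 mice, 0% in wild type mice and 0% for the interaction, limma). For treatment in R6/2 mice, 3 of the 6 probe sets had an unadjusted p under 0.05 (limma), against 16.9% of all tested probe sets. They were Irs2, Igf1 and Igfbp2, with estimates above 0, and the Igf1 groups overlapped. This was 1 of 6 (Igf1) without untreated R6/2 arrays 2 and 3, against 4.08% of all, and with values floored at 20 it was 2 of 6 (Igf1 and Igfbp2), against 17.1%. For treatment in wild type mice 1 of 6 reached that unadjusted level (Igf2, with an estimate above 0), against 10.3% of all. For the interaction 2 of 6 did (Irs2 and Igfbp2), against 13.5% of all. Of the 6, Irs2 and Igfbp2 did not overlap between treated and untreated R6/2 mice, against 10.6% of all. This was again 2 of 6, against 17.7%, without untreated R6/2 arrays 2 and 3. Irs2 was bright enough to test only through its high arrays, so its place in these counts supports nothing about these genes as a group. The counts also rest on genes chosen with earlier results of these data known. In treated mice 0 of 6 passed between genotypes, against 0.792% of all, and 1 of 6 at an unadjusted p under 0.05, against 9.19%. The untreated genotype comparison shares its R6/2 arrays with the treatment comparison in R6/2 mice and its wild type arrays with that in wild type mice, so their signs are not independent. With genotype averaged over treatment, Igf2 and Igfbp4 101571_g_at passed, 2 of 6, against 6.61% of all. With treatment averaged over genotype none passed (0% of all), and 2 of 6 did at an unadjusted p under 0.05 (Igf1 at 0.34 and Igf2 at 0.31), against 12.6% of all, or 1 of 6 without untreated R6/2 arrays 2 and 3 (Igf2 at 0.30), against 9.23%.

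**Figure D3:**
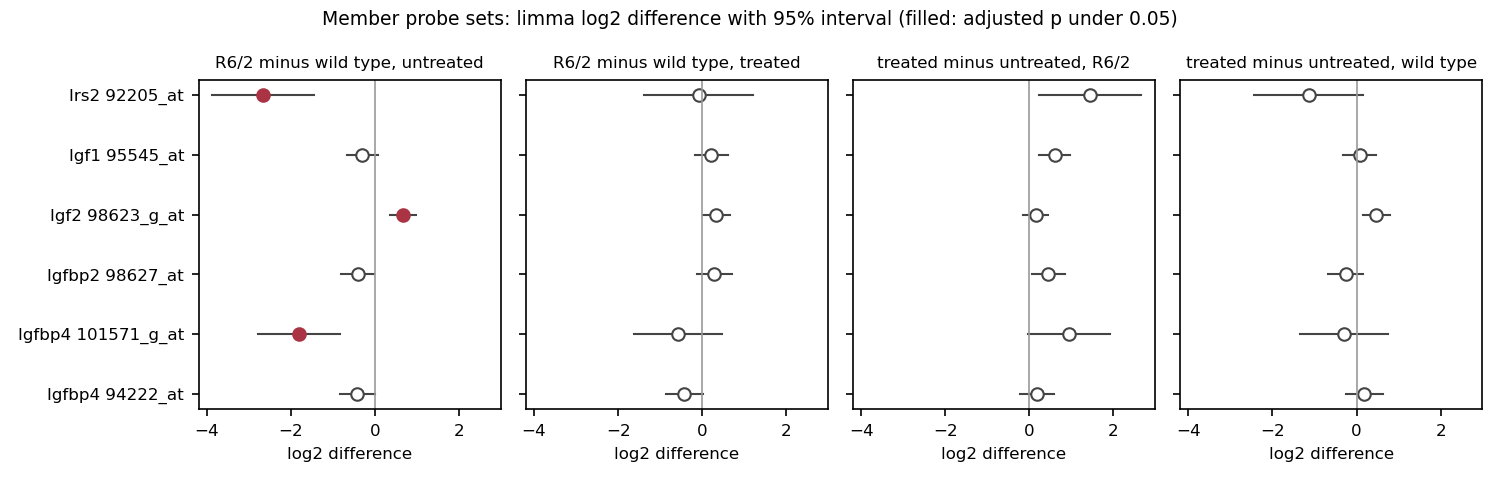
Log2 differences (horizontal axis) with 95% intervals from limma for the 6 tested probe sets in 4 comparisons, filled where the adjusted p is under 0.05. Filled points appear only in the untreated genotype comparison, for Irs2 at -2.66, Igf2 at 0.66 and Igfbp4 101571_g_at at -1.81.

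**Figure D4:**
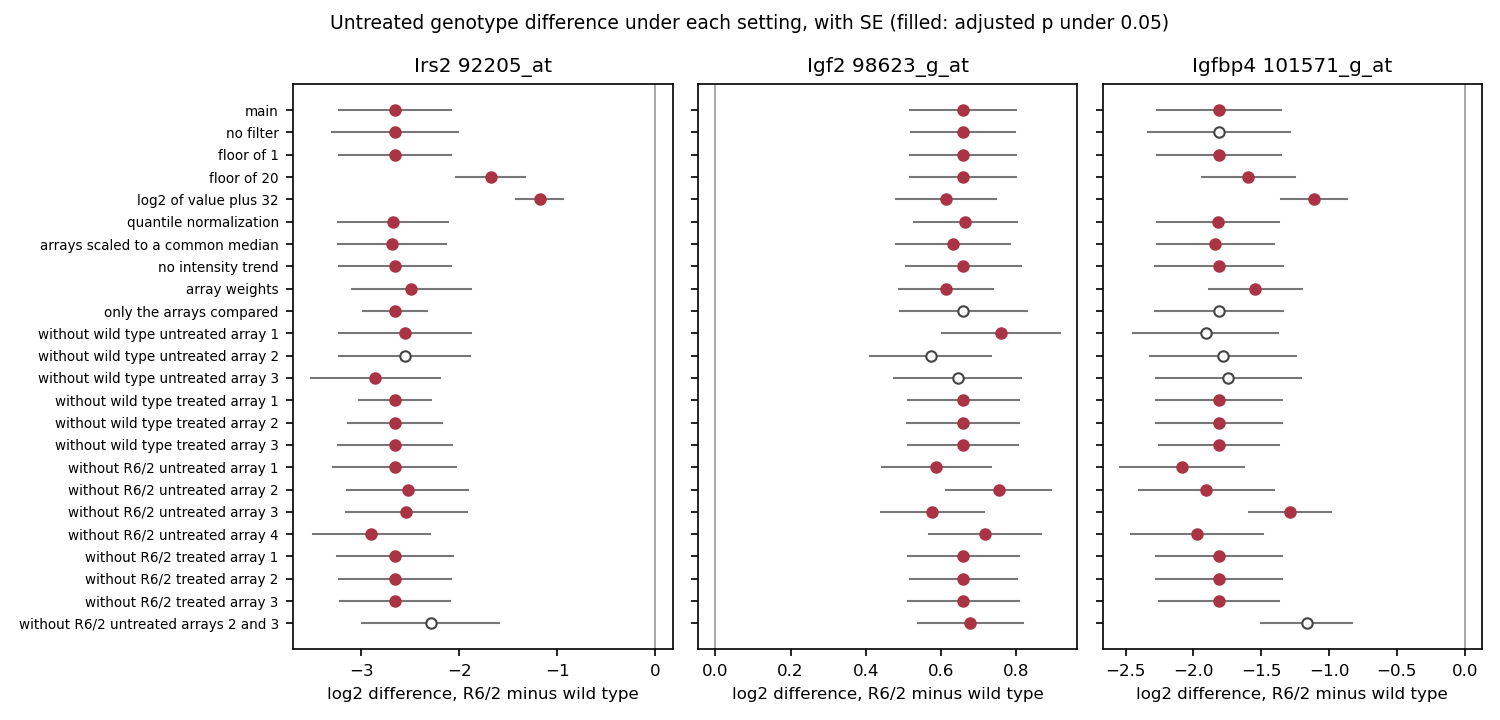
Untreated genotype difference (log2, R6/2 minus wild type, with SE) of the 3 called probe sets under each processing setting, filled where the adjusted p is under 0.05. The direction is the same throughout, and open points mark the settings in which the call was lost, among them the fit without untreated R6/2 arrays 2 and 3 for Irs2 (-2.29) and Igfbp4 101571_g_at (-1.17).

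The tested probe sets with the most similar pattern over the 13 arrays were listed for each gene as a description, by Pearson r of log2 signal. Arrays of a group share its condition, so r is also given after the group means were taken out. For Irs2 they were those of Pip5k1c (r of 0.91, then 0.76), Mrpl4 (0.89, then 0.77) and Maf (0.89, then 0.75). For Igf1 they were Dlk1 (0.92, then 0.89), Stom (0.92, then 0.88) and Slc9a8 (0.90, then 0.86). Sowahc (0.92, then 0.83), Bcas2 (0.92, then 0.80) and Krt35 (0.90, then 0.64) came nearest to Igf2. Clcn7 (0.93, then 0.89), Pqbp1 (0.91, then 0.93) and Snrpc (0.90, then 0.94) came nearest to Igfbp2. Lmbr1l (0.91, then 0.86), Ptdss2 (0.90, then 0.86) and Ccdc12 (0.85, then 0.81) came nearest to Igfbp4 94222_at. By rank (Spearman), Igfbp2 with Pqbp1 had 0.68 and Igf2 with Krt35 0.71, against 0.77 to 0.94 for the other genes listed. No gene appeared for more than 1 of the 5. Among the 5 genes themselves the values after removal of the group means ran from -0.58 (Igf2 and Igfbp2) to 0.72 (Igfbp2 and Igfbp4 101571_g_at). In both probe sets of that last pair, untreated R6/2 array 3 was far below its group (104.7 and 11), which removing group means leaves in place.

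The rest of the pathway was read from lists of 105 genes by role, the genes above included, of which 79 had a probe set of their own and 59 were tested with the brightest one. In untreated mice 2 of the 59 rose and 6 fell in R6/2, and 51 did not pass. These 8 of 59 stand beside 11.9% of all tested probe sets (5.49% higher and 6.41% lower). Irs2, bright enough to test only through its high arrays, is among the 8, so its place there supports nothing about the pathway. The lists were also chosen with earlier results of these data known. Counts of listed genes, here and by role below, are therefore descriptions and support nothing about the pathway. Only 2 of 59 passed without untreated R6/2 arrays 2 and 3 (Igf2 higher and Akt2 lower), against 2.19% of all. The median log2 difference of the 59 was -0.11, against 0.04 over all tested probe sets, and -0.03 without untreated R6/2 arrays 2 and 3. Apart from Igf2 and Irs2, the 6 that passed were Pik3ca, which rose, and Htra1, Akt2, Pik3r1, Inppl1 and Th, which fell. In treated mice 0 of the 59 passed, against 0.792% of all, and 6 had an unadjusted p under 0.05, against 9.19% of all. Neither treatment comparison gave a call. In R6/2 mice 13 of 59 had an unadjusted p under 0.05 for treatment, against 16.9% of all, and 3 of 59 without untreated R6/2 arrays 2 and 3, against 4.08%. In wild type mice 8 of 59 did, against 10.3% of all.

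At the cell surface, none of the 3 tested receptor genes passed between untreated genotypes, against 11.9% of all tested probe sets. Igf1r, the IGF1 receptor, differed by 0.36 (limma, adjusted p = 0.275), Igf2r, which clears IGF2 from the cell surface, by -0.15 (limma, adjusted p = 0.420) and Ghr, the growth hormone receptor, by -0.16 (limma, adjusted p = 0.688). These values were 0.13, -0.17 and 0.05 without untreated R6/2 arrays 2 and 3. Insr, Insrr and Irs1 were too dim to test. Growth hormone itself (Gh) differed by 0.40 (limma, adjusted p = 0.0662), or 0.38 without those arrays. Igfbp6, which prefers IGF2, differed by 0.22 (limma, adjusted p = 0.469), or 0.28 without them, and Igfbp1, Igfbp3 and Igfbp7 were too dim to test. Among the binding proteins and their processing enzymes 1 of 5 tested passed, against 11.9% of all. Without those arrays 0 of 5 did, against 2.19% (1 at an unadjusted p under 0.05, limma, against 18.8%). The 1 that passed with all arrays was Htra1, a secreted protease that cleaves IGF-binding proteins. It read 429.1 to 493.8 in untreated wild type and 283.9 to 359.5 in untreated R6/2 arrays. The groups did not overlap, and the difference was -0.49 ± 0.11 (limma, adjusted p = 0.0159), or -0.39 without untreated R6/2 arrays 2 and 3 (limma, adjusted p = 0.0846) and -0.43 without wild type untreated array 2 (limma, adjusted p = 0.0797). Treated wild type arrays read 455.5 to 478 and treated R6/2 arrays 326.6 to 381.8, and averaged over treatment the difference was -0.45 (limma, adjusted p = 0.00428), a call kept in each of the 13 fits that left out 1 array.

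Inside the cell, 3 of the 10 tested PI3K and AKT genes passed in untreated mice, against 11.9% of all tested probe sets, and 1 of the 10 without untreated R6/2 arrays 2 and 3, against 2.19%. Akt2, the AKT kinase tied most closely to insulin, read 118.7 to 129.4 in untreated wild type and 37.2 to 79.8 in untreated R6/2 arrays, without overlap. The difference was -1.19 ± 0.24 (limma, adjusted p = 0.0101), and -0.73 without untreated R6/2 arrays 2 and 3 (limma, adjusted p = 0.0470). R6/2 treated arrays, at 95.4 to 137.8, lay above all untreated R6/2 arrays, although the treatment difference of 1.00 ± 0.24 did not pass (limma, adjusted p = 0.246) and was 0.53 without untreated R6/2 arrays 2 and 3. Pik3r1, the regulatory subunit that binds IRS proteins, differed by -0.79 ± 0.20 (limma, adjusted p = 0.0230), and by -0.50 without those arrays (limma, adjusted p = 0.181). Its call was also lost without any 1 of the 3 untreated wild type arrays (-0.80 to -0.79) and without untreated R6/2 array 2 (-0.71) or 3 (-0.68). Pik3ca, a catalytic subunit, differed by 1.05 ± 0.26 (limma, adjusted p = 0.0209), and by 0.76 without those arrays (limma, adjusted p = 0.164), while its other probe set differed by 0.06. Its call was also lost without wild type untreated array 2 (0.86, limma adjusted p = 0.101) or untreated R6/2 array 2 (1.01, limma adjusted p = 0.0532).

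Of the 7 tested brakes on the pathway, Inppl1, a phosphatase that removes the lipid signal of PI3K, fell by 0.49 ± 0.15 on the log2 scale (limma, adjusted p = 0.0475), a call kept only without untreated R6/2 array 4 or without R6/2 treated array 2 among the 13 fits that left out 1 array, which ran from -0.61 to -0.36. It was -0.43 without untreated R6/2 arrays 2 and 3 (limma, adjusted p = 0.199). Of the 10 tested adaptors Irs2 alone passed. None of the 8 tested genes of the mTOR arm did (0 of 8 at an unadjusted p under 0.05), and none of the 12 tested FOXO factors and FOXO targets (2 of 12 at that level). Over all tested probe sets 11.9% passed between untreated genotypes and 30.2% reached that unadjusted level (limma). Th, the tyrosine hydroxylase gene that neighbours Ins2 and Igf2 on chromosome 7, fell by 0.76 ± 0.20 on the log2 scale (limma, adjusted p = 0.0301), while Igf2 itself rose. Its call was lost without any 1 of the untreated wild type arrays (-0.91 to -0.64), without untreated R6/2 array 2 (-0.72) or 3 (-0.65) and without both (-0.54, limma adjusted p = 0.215). Averaged over treatment, Igf2 and Pik3ca were higher and Htra1 and Akt2 lower among the 59, and with 1 array left out Pik3ca kept that call in 4 of 13 fits (0.58 to 0.86) and Akt2 in 5 of 13 (-0.78 to -0.60). Pik3ca lost it without untreated R6/2 arrays 2 and 3 (0.54, limma adjusted p = 0.124), while Htra1 (-0.40, limma adjusted p = 0.00719) and Akt2 (-0.46, limma adjusted p = 0.0357) kept it.

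**Figure D5:**
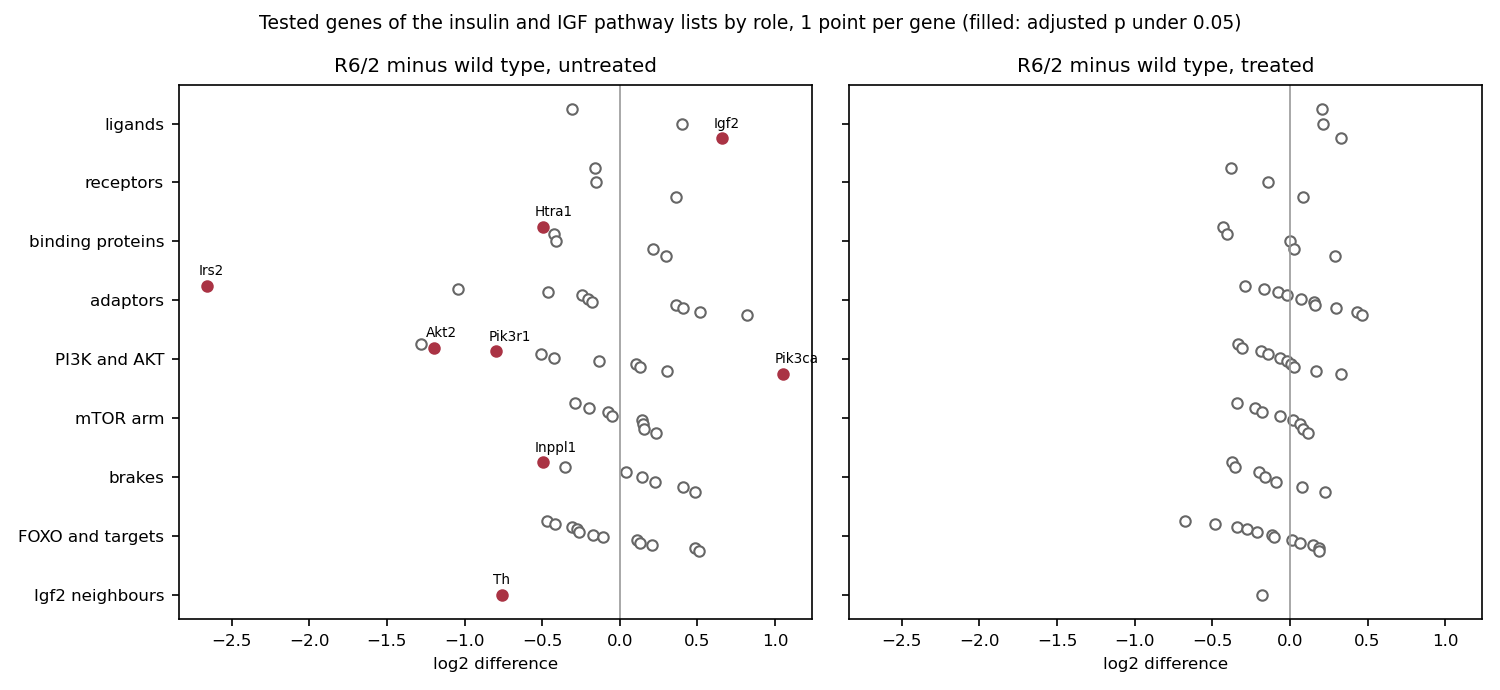
Log2 difference between R6/2 and wild type mice (horizontal axis) for each tested gene of the pathway lists, grouped by role, in untreated (left) and treated (right) mice, filled where the adjusted p is under 0.05. The 8 filled genes are all in untreated mice, from Irs2 at -2.66 to Pik3ca at 1.05.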

How the data were processed

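Affymetrix MG-U74Av2 arrays of 13 samples were analysed. The deposited files give linear intensities. With the extreme 2% at either end trimmed, array means are 100.047 to 100.128, so the authors had scaled them, with software not given in the sources used here. Array medians were 39.6 to 45.1, so no further normalization was applied. Values under 3.1 (the 10th percentile) were raised to it and log2 was taken. Of 12422 gene probe sets, 7453 were tested, those whose mean log2 reached the 40th percentile, a signal of 24.9. Below it lay 3 of the 9 probe sets described. The platform annotation gave 1 gene to 10833 probe sets, several to 396 and none to 1193.

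All 13 arrays entered 1 model with a mean per title group (limma 3.58.1, R 4.3.3), with an intensity trend and Benjamini-Hochberg adjustment over the 7453, for 7 comparisons. The fit was tested on simulated data with independent errors. These held no arrays that stood apart, so that test does not cover the effect of untreated R6/2 arrays 2 and 3. Arrays give no read depth, and their number limits the precision. The alternatives were no filter, floors of 1 and 20, log2 of the value plus 32, quantile normalization, scaling to a common median, no intensity trend, array weights, only the arrays compared, each array left out, and untreated R6/2 arrays 2 and 3 left out. Named genes were the members, pathway genes past the threshold, the ligands, receptors and binding proteins, the markers beside them and the 3 genes most alike per member. The members and lists were chosen with earlier results of these data known. Promoter sequences and coordinates are from RefSeq, GRCm38; the array files hold none.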

Additional observations from a re-analysis of the deposited data

Results flagged for a closer look

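Igfbp2 (98627_at) in untreated R6/2 mice had 1 array apart from the rest. Array 3, at 104.7, lay below the others at 173.3 to 178.1, a gap of 0.935 of the range of the group. The dim Igf1 probe set (95546_g_at) had a gap of 0.875 of the range in the same group, where its signals were 3.1 to 4.7, near the floor. Some groups of 3 arrays had wide gaps too. Igfbp4 101571_g_at in treated wild type had 59.7 against 116.6 and 116.8, and Irs2 in untreated wild type had 48.6 against 73.4 and 73.8. Chance sets an array apart in about 1 in 20 groups, and 9 probe sets were read in 4 groups each.

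The treatment estimates of Igfbp2 also had opposite signs in the genotypes, though neither passed. Every R6/2 treated array lay above the mean of the untreated R6/2 arrays, while every wild type treated array lay below that of the untreated wild type arrays. Likewise every untreated R6/2 array lay below the mean of untreated wild type, and every R6/2 treated array above the mean of treated wild type. The interaction that tests this was 0.699 on the log2 scale (limma, adjusted p = 0.316), so it did not pass. Without untreated R6/2 array 3 it was 0.511 (limma, adjusted p = 0.381).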

How the results depend on the processing

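No paired analysis was possible because the labels carry a lot number per sample and no replicate number shared between groups. Of 1218 values of the members and called pathway genes under other settings, 1100 kept their direction and their side of the threshold, 81 lost the call, 12 gained one and 25 changed sign. Where a call or a sign changed, the cause was not tested, beyond the fewer arrays or different probe sets that a setting uses. None of the 3 dim probe sets passed without the filter.

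The count of probe sets past the threshold moved most. Between untreated genotypes (887) it was 512 without the filter, 243 with only the arrays compared, 163 without untreated R6/2 arrays 2 and 3 and 157 to 1308 with 1 array left out (157 without wild type untreated array 2). Between treated genotypes (59) it was 208 with array weights, 119 without arrays 2 and 3 and 20 to 95 with 1 left out (20 without R6/2 treated array 1). For treatment in R6/2 mice (0) it was 1 without the filter, 1 without arrays 2 and 3 and 0 to 116 with 1 left out. For treatment in wild type mice (0) it was 2 without the filter, 3 with a floor of 20, 2 with log2 of the value plus 32, 1 without the trend, 120 with array weights, 9 with only the arrays compared, 8 without arrays 2 and 3 and 0 to 6 with 1 left out. For genotype averaged over treatment (493) it was 932 with array weights and 263 to 704 with 1 left out, for treatment averaged over genotype (0) it was 17 and 0 to 43, and for the interaction it was 0 throughout.

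Values near 0 changed sign. With 1 array left out, the treated genotype difference of Irs2 ran from -0.97 to 0.61, the wild type treatment differences of Igf1 from -0.017 to 0.17 and of Igfbp4 101571_g_at from -0.46 to 0.028, and the interaction of Igfbp4 94222_at from -0.28 to 0.17 (0.0042 with a common median). The averaged genotype difference of Igf1 ran from -0.10 to 0.049 (0.0052 with array weights, 0.051 without arrays 2 and 3) and that of Igfbp2 from -0.10 to 0.032 (0.038 without arrays 2 and 3). The averaged treatment difference of Irs2 ran from -0.19 to 0.60 (-0.085 with a floor of 20, -0.025 without arrays 2 and 3), and without those arrays it was -0.0022 for Igfbp2 and -0.00073 for Igfbp4 101571_g_at. Dim signals limit Irs2 and the probe sets near the floor, and 3 or 4 arrays a group limit all values.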
